A study of Drosophila melanogaster with 12 samples.

Results

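The genes described here are 8 drivers of the cell cycle of Drosophila melanogaster, taken by name from a table of 17469 genes: E2f1, stg, Cdk4, CycD, CycE, CycA, CycB and Cdk1. The measurement is not their messenger RNA but the small RNAs bound to the protein Piwi that map to these genes, counted as RPM, the reads of a gene scaled to the total of its library. All 8 genes were found in the table, and all passed the filter of at least 1 RPM in at least 3 libraries that left 8246 genes for testing.

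Piwi carries PIWI-interacting RNAs (piRNAs) into the nucleus, where they guide the silencing of transposons. In the somatic cells of the fly ovary piRNAs are cut from long transcripts of transposon-rich loci and also from the messenger RNAs of many ordinary genes. The precursors are brought to the outer mitochondrial membrane by the RNA helicase Armitage (Armi), where the endonuclease Zucchini (Zuc) cuts them. Daedalus (Daed) is a protein of the same membrane. In the cell cycle, Cyclin D with Cdk4 acts in G1, E2f1 with Cyclin E opens S phase, and the phosphatase String (stg) activates Cdk1, which enters mitosis with Cyclins A and B.

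All 12 libraries came from ovarian somatic cells (OSC), a cultured line of the follicle cell lineage of the ovary, in 4 groups of 3. Every cell pool went through RNAi and then received a rescue plasmid after 48 h, and was harvested 48 h later. The Daed knockdown (KD) carried overexpressed Flag-Daed, either wild type (WT) or the deltaSAM mutant, which lacks the SAM domain. The Armi knockdown carried overexpressed Armi-Flag, either WT or the KEE mutant, whose meaning the labels do not give. No group without a rescue plasmid was part of these libraries, so both members of each comparison were transfected and overexpressed the protein. The endogenous protein that the RNAi left was not measured here.

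The libraries held 1396369 to 3995009 reads. More of a library was assigned to genes with either mutant. The range was 49.2% to 50.8% with Daed WT, 57.3% to 58.4% with deltaSAM, 61.9% to 64.3% with Armi WT and 79.2% to 79.7% with KEE. Replicate 3 of deltaSAM and replicate 3 of Armi WT stood apart from their groups. Their reads differed from those of the other replicates with a chi-square per degree of freedom of 4.94 to 5.93, against 1.22 to 2.18 between all other replicate pairs. Results that change without them are given in both forms. Of 7 follicle cell markers, tj and flam gave at least 7401 and 8195 RPM in each library. The 7 summed to 33233 to 39219 RPM in the other 3 groups and to 21772 to 22155 RPM with KEE, a sum carried by tj and flam. Between Armi WT and KEE these 2 fell and the other 5 rose (limma, adjusted p under 0.05), with a list median of 1.45 on the log2 scale. The part of these shifts in the results below was not tested. The 9 germline markers summed to 109 to 208 RPM, of which spn-E made up 87.0 to 184 RPM, and vas, rhi and tej were at 0 in some libraries. The siRNA targets themselves check nothing, as piRNA levels do not measure a knockdown and plasmid reads cannot be told from endogenous ones. In the Daed knockdown daed stood at 27.6 to 32.3 RPM and armi at 161 to 310.1 RPM. In the Armi knockdown they stood at 2.61 to 6.76 RPM and 857 to 1582 RPM.

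E2f1 piRNAs rose 4.02-fold with KEE, CycE piRNAs 2.41-fold and stg piRNAs 2.19-fold. These folds are on the scale of RPM + 1. In the Daed knockdown the large rises were at other drivers, Cdk4 with 2.74-fold and CycA with 1.83-fold, while E2f1 and CycD fell. The plot of RPM by library shows these levels. Nothing in the labels says that replicates were separate cultures, so the p-values reflect the spread of these libraries, which may be technical. In libraries of pooled cells, fewer cells that make a piRNA and less piRNA per cell cannot be told apart.

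**Figure D1:**
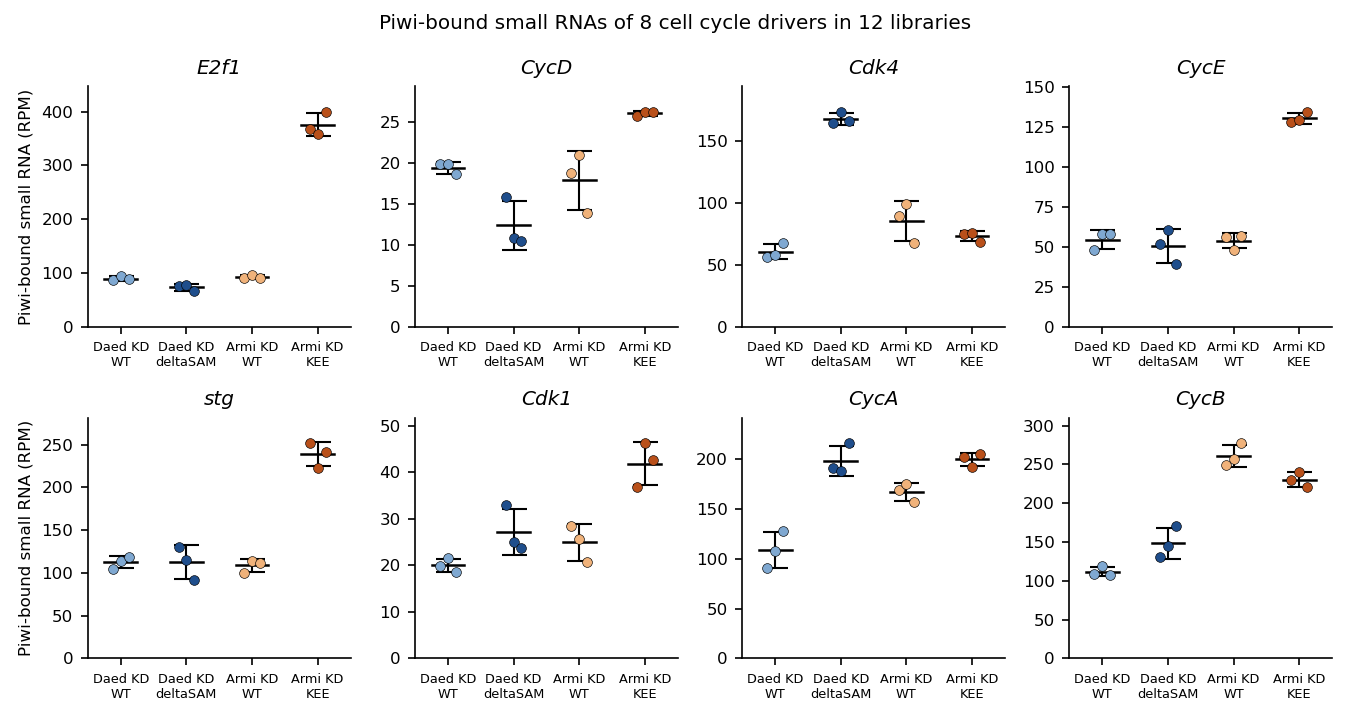
Piwi-bound small RNAs of the 8 drivers, in RPM on linear axes that start at 0, with 1 panel per gene. Points are libraries, bars are the mean and SD of 3 libraries. E2f1, CycE and stg stand highest with KEE, Cdk4 stands highest with deltaSAM, and CycB stands highest with Armi WT.

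Cdk4 (dm6 2R:16579470-16585448) encodes a kinase that acts in G1 with Cyclin D. Its piRNAs reached 56.6, 57.9 and 67.3 RPM with Daed WT and 164, 173 and 166 RPM with deltaSAM. Every deltaSAM library lay above every other library of the series. The log2 fold change of RPM + 1 was 1.46 ± 0.12 (SE), adjusted p = 1.41e-10 (limma, Benjamini-Hochberg over all genes tested). This placed Cdk4 at rank 87 of 8246 tested genes from the largest rise. In the Armi knockdown Cdk4 gave 89.6, 98.9 and 67.4 RPM with WT and 74.9, 75.5 and 68.1 RPM with KEE. The groups overlapped because WT replicate 3 lay below every KEE library. Its log2 fold change was -0.21 ± 0.12 (adjusted p = 0.171, limma), with a 95% interval of -0.46 to 0.04. Without WT replicate 3 it was -0.37 (adjusted p = 0.0123, limma), and without it and replicate 3 of deltaSAM it was also -0.37 (adjusted p = 0.00627). It was -0.53 scaled to gene reads, where it passed the test.

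CycD (X:15906822-15909676), the cyclin partner of Cdk4, did not follow it. CycD piRNAs were at 19.9, 19.9 and 18.6 RPM with Daed WT and at 15.9, 10.9 and 10.5 RPM with deltaSAM, with no overlap. The fall was -0.63 ± 0.19 on the log2 scale (adjusted p = 0.00992, limma). With Armi WT they were at 18.8, 21.0 and 13.9 RPM and with KEE at 25.8, 26.2 and 26.3 RPM. All KEE libraries lay above all WT libraries, and the log2 fold change was 0.54 ± 0.19 (adjusted p = 0.0218, limma). Without WT replicate 3 it was 0.38 (adjusted p = 0.144, limma), and without KEE replicate 1, 2 or 3 it was 0.53 to 0.55 (adjusted p 0.0529 to 0.0601). CycD is a low source, with 19 to 105 reads per library, and counting alone gives a coefficient of variation of 10.0% to 21.3% within a group. Reads here carry no molecular identifiers named in the labels, so this covers counting error only. Centred on the median gene, neither CycD change passed (-0.42 with deltaSAM and 0.19 with KEE, adjusted p 0.0960 and 0.482). The fall with deltaSAM did not pass with TMM (-0.55, adjusted p = 0.0695) or DESeq2 (-0.58, adjusted p = 0.0982) either. Nor did the rise with KEE pass with TMM (0.12, adjusted p = 0.580) or DESeq2 (0.12, adjusted p = 0.708). It also did not pass scaled to gene reads (0.22, adjusted p = 0.389, limma).

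E2f1 (3R:21620304-21660871) encodes the transcription factor that switches on S phase genes. Its piRNAs were at 86.7, 94.4 and 88.1 RPM with Daed WT, 76.4, 77.3 and 65.7 RPM with deltaSAM, and 91.2, 96.3 and 90.4 RPM with Armi WT. With KEE they stood at 368, 359 and 399 RPM. The KEE libraries lay far above the other 9, which spanned a narrow range. The rise with KEE was 2.01 ± 0.10 on the log2 scale (adjusted p = 3.7e-16, limma), rank 144 of 8246. The change with deltaSAM was -0.29 ± 0.10 (adjusted p = 0.0205, limma). This fall was lost without WT replicate 2 (-0.26, adjusted p = 0.0757) or deltaSAM replicate 3 (-0.22, adjusted p = 0.0787), and with the 6 Daed libraries alone (-0.29, adjusted p = 0.0791). It was also lost with median centring (-0.079, adjusted p = 0.597), TMM (-0.18, adjusted p = 0.251) and DESeq2 (-0.22, adjusted p = 0.203). The E2f1 span also holds the microRNA genes mir-11 and mir-998, which have no line of their own in the gene table.

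CycE (2L:15727581-15748150), the cyclin of S phase entry, also stood highest with KEE. CycE piRNAs were at 47.9, 57.9 and 58.0 RPM with Daed WT, 51.7, 60.4 and 39.2 RPM with deltaSAM, and 56.2, 48.4 and 56.9 RPM with Armi WT. With KEE they stood at 128, 129.6 and 134.7 RPM. The other 3 groups overlapped one another, and KEE overlapped none of them. CycE rose with KEE by 1.27 ± 0.13 on the log2 scale (adjusted p = 3.53e-09, limma). With deltaSAM it was -0.13 ± 0.13 (adjusted p = 0.489), with a 95% interval of -0.40 to 0.15, and its sign turned to 0.039 without deltaSAM replicate 3. Scaled to gene reads CycE passed as a fall with deltaSAM (-0.34, adjusted p = 0.0488, limma).

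The phosphatase gene stg (3R:29251826-29255800), the fly Cdc25 that releases mitotic entry, gave 105.0, 114.2 and 118.2 RPM with Daed WT and 130.5, 115.4 and 91.7 RPM with deltaSAM. The deltaSAM libraries lay on both sides of the WT libraries. The stg log2 fold change was -0.01 ± 0.11 (adjusted p = 0.947, limma), with a 95% interval of -0.24 to 0.22. In the Armi knockdown stg gave 100.3, 113.9 and 111.5 RPM with WT and 251, 223 and 242 RPM with KEE. The groups were far apart, with a log2 fold change of 1.13 ± 0.11 (adjusted p = 8.62e-10, limma).

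Cdk1 (2L:10384739-10386262), the mitotic kinase, was a low source of piRNAs, with 26 to 171 reads per library. It gave 19.9, 21.5 and 18.6 RPM with Daed WT and 32.9, 25.05 and 23.7 RPM with deltaSAM. All deltaSAM libraries were above all WT libraries, but the log2 fold change of 0.41 ± 0.16 passed only narrowly (adjusted p = 0.0491, limma). Leaving out any library except replicate 3 of deltaSAM or of Armi WT ended this call (0.28 to 0.47, adjusted p 0.0520 to 0.242). In all, 18 of 24 alternative analyses ended it, the replicate block among them (adjusted p = 0.0532). With Armi WT Cdk1 gave 28.5, 25.7 and 20.7 RPM and with KEE 36.9, 46.2 and 42.6 RPM. All KEE libraries were the higher ones, with a log2 fold change of 0.73 ± 0.16 (adjusted p = 0.000506, limma). This rise did not pass when centred on the median gene (0.38, adjusted p = 0.0745, limma). Nor did it pass with TMM (0.31, adjusted p = 0.0769, edgeR) or DESeq2 (0.31, adjusted p = 0.184). Scaled to gene reads it passed narrowly (0.41, adjusted p = 0.0455, limma).

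CycA (3L:11826719-11833578), the cyclin of G2 and early mitosis, was higher with deltaSAM. It gave 90.7, 108 and 127 RPM with Daed WT and 191, 188 and 216 RPM with deltaSAM. The spread among the WT libraries was the wider one, and the groups stayed apart. CycA rose by 0.87 ± 0.11 on the log2 scale (adjusted p = 1.54e-07, limma). In the Armi knockdown CycA gave 169, 175 and 157 RPM with WT and 202, 192 and 205 RPM with KEE. The groups did not overlap, and the log2 fold change of 0.26 ± 0.11 lay at the threshold (adjusted p = 0.0499, limma). Leaving out any of the 6 Armi libraries ended this call (0.21 to 0.29, adjusted p 0.0567 to 0.151), as did leaving out Daed WT replicate 2 or deltaSAM replicate 1 or 2. Its sign turned scaled to gene reads (-0.069).

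CycB (2R:22803521-22806948), the cyclin of mitotic entry, gave 109, 119 and 107 RPM with Daed WT and 130.5, 144 and 170.1 RPM with deltaSAM. The groups did not overlap, and the log2 fold change was 0.40 ± 0.10 (adjusted p = 0.00205, limma). Scaled to gene reads it was 0.19 (adjusted p = 0.133). With Armi WT it gave 249, 256 and 277 RPM and with KEE 229.9, 239.9 and 221 RPM. All KEE libraries lay below all WT libraries, but the log2 fold change of -0.18 ± 0.10 did not pass (adjusted p = 0.146, limma). It did pass with the 6 Armi libraries alone (-0.18, adjusted p = 0.0447) and scaled to gene reads (-0.50, adjusted p = 0.000138).

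**Figure D2:**
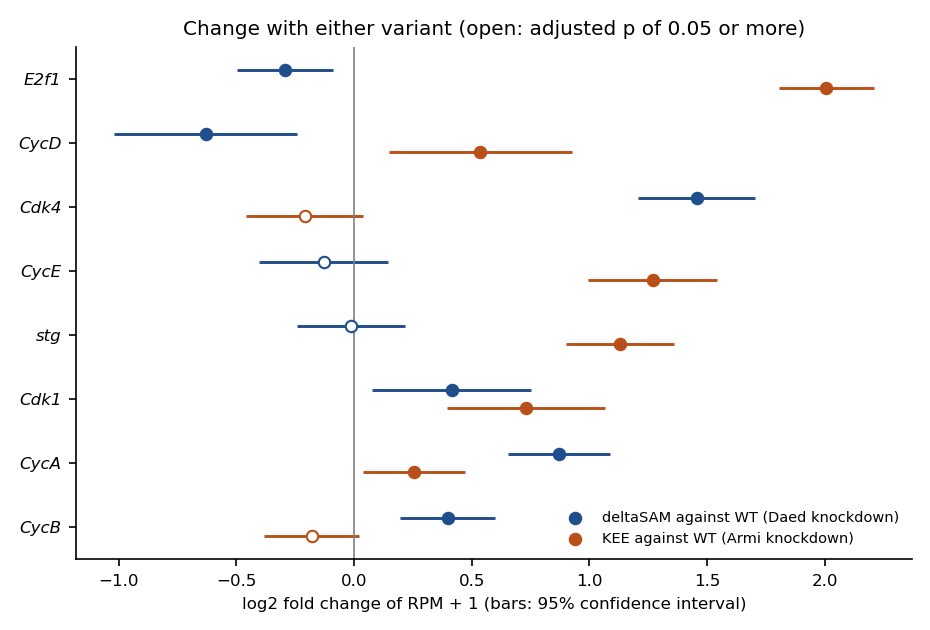
Log2 fold change of RPM + 1 for each driver with its 95% confidence interval, deltaSAM against WT in blue and KEE against WT in orange, 3 libraries a group. Filled points passed an adjusted p of 0.05. E2f1 (2.01), CycE (1.27) and stg (1.13) lie furthest right with KEE, Cdk4 (1.46) and CycA (0.87) with deltaSAM.

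Of the 8 drivers, 4 rose with deltaSAM (Cdk4, CycA, CycB and Cdk1), 2 fell (E2f1 and CycD) and 2 did not pass. Over all tested genes 36.2% were called with deltaSAM, 17.3% up and 18.9% down. Of these calls 47.8% were rises, beside 29.3% scaled to gene reads and 68.8% centred on the median gene. With KEE 6 drivers rose, and Cdk4 and CycB did not pass. By limma on RPM and all 12 libraries, 0 drivers fell with KEE, also 0 at an unadjusted p under 0.05, and 0 by edgeR at the library size. Limma scaled to gene reads or centred on the median gene, edgeR with TMM factors and DESeq2 each called 2 falls. Without replicate 3 of deltaSAM and of Armi WT, 4 drivers rose and 1 fell in each comparison, E2f1 with deltaSAM and CycD and CycA with KEE no longer passing and Cdk4 falling with KEE. Over all tested genes 44.7% were called with KEE, 33% up and 11.7% down. Rises made up 73.8% of these calls, beside 55.6% scaled to gene reads and 49.7% by median centring. Calls were more frequent among abundant genes. Among the 2251 tested genes whose mean lay within the range of the drivers, 19.0 to 188 RPM, 57.8% were called with deltaSAM (33.9% up, 23.9% down) and 76.1% with KEE (57.1% up, 19% down). The drivers' share of 75% in each comparison thus lay near this background with KEE. With deltaSAM it rests on 6 of 8 genes, Cdk1 passing only narrowly. The 6 became 4 with TMM, median centring or the Daed libraries alone, and 3 with DESeq2. The median log2 fold change of the drivers was 0.19 with deltaSAM and 0.63 with KEE, beside -0.10 and 0.30 over all tested genes. The libraries did not overlap for 6 drivers with deltaSAM and 7 with KEE, beside 40.6% and 58% of all tested genes. For overlap no share was computed within the drivers' range of RPM, so abundance is not accounted for in these counts.

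Summed over the 8 drivers, piRNAs took a larger part of all gene reads with either mutant, but the sum was carried by a few of them. With Daed WT the drivers made up 0.115 ± 0.00873% (SD, n = 3) of gene reads and with deltaSAM 0.136 ± 0.00028%. Armi WT gave 0.128 ± 0.00234% and KEE 0.165 ± 0.00288%. The libraries of WT and mutant were separate in each experiment. With 3 libraries on each side the two-sided exact permutation test gave p = 0.1 for both experiments, and no smaller p is possible in this design. In RPM of gene reads the sum was 375 higher with KEE, of which E2f1 alone gave 326, stg 129 and CycE 79.4, while CycB differed by -123, Cdk4 by -42.7 and CycA by -12.4. With deltaSAM the sum was 209.9 higher, Cdk4 giving 168 and CycA 125, while E2f1 differed by -52.8, stg by -30.6, CycE by -22.1 and CycD by -17.4.

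Several directions differed between scalings. The median log2 fold change of all tested genes was -0.10 with deltaSAM and 0.30 with KEE in RPM, -0.27 and 0.04 scaled to gene reads, and -0.01 and -0.05 with edgeR and TMM factors. Cdk4 and CycA passed as rises with deltaSAM in all of RPM, gene reads, median gene, TMM and DESeq2, and so did E2f1, CycE and stg with KEE. When gene reads replace the library total in RPM, E2f1 went from 146 ± 3.76 with Armi WT to 472 ± 25.9 with KEE, a ratio of 3.23. CycE went from 85.0 ± 8.65 to 164 ± 3.97, and stg from 171 ± 12.8 to 300.3 ± 18.7. On this scale Cdk4 went from 121 ± 13.7 with Daed WT to 289 ± 7.68 with deltaSAM. Against RPM, KEE turned from 6 rises and 0 falls among the drivers to 4 and 2 scaled to gene reads and to 3 and 2 with TMM, DESeq2 or median centring. The 2 falls were Cdk4 and CycB in each. Per gene reads CycB went from 412 ± 31.4 with Armi WT to 289.7 ± 11.9 with KEE. With deltaSAM the 4 rises and 2 falls became 2 and 3 scaled to gene reads (E2f1, CycD and CycE falling), and 4 and 0 with TMM or median centring.

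**Figure D3:**
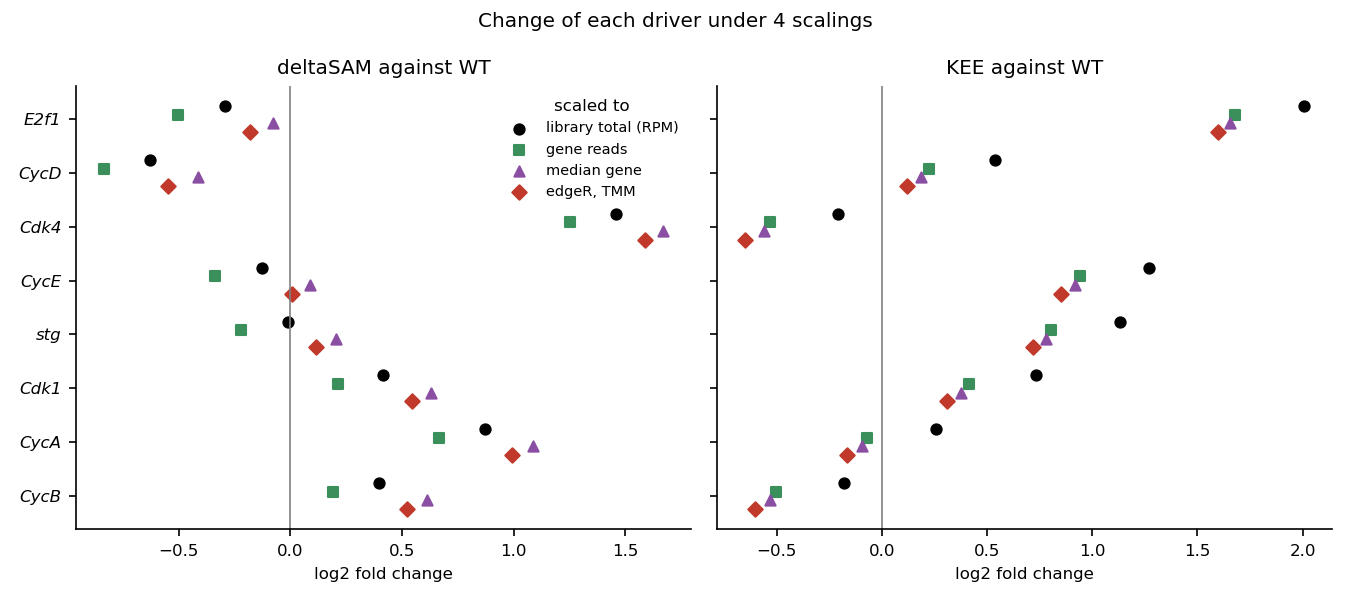
Log2 fold change of each driver when a library is scaled to its total (RPM), to its gene reads, to its median gene or by edgeR with TMM factors, deltaSAM against WT on the left and KEE against WT on the right. CycA with KEE crosses 0 between scalings (0.26 in RPM, -0.17 with TMM), while E2f1, CycE and stg stay to the right with KEE and Cdk4 and CycA with deltaSAM.

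The effect of KEE differed from that of deltaSAM at 7 of the 8 drivers, 4 of them higher and 3 lower with KEE. Of all tested genes 40.4% differed, 29.4% higher and 11% lower, and within the drivers' range of RPM 67.9% differed, 47% higher and 20.9% lower. Higher calls made up 72.8% of these over all tested genes, and 38.8% by median centring. The difference in log2 fold change, KEE minus deltaSAM, was 2.30 ± 0.14 for E2f1, 1.397 ± 0.19 for CycE, 1.17 ± 0.27 for CycD and 1.14 ± 0.16 for stg. It was -1.67 ± 0.17 for Cdk4, -0.62 ± 0.15 for CycA and -0.58 ± 0.14 for CycB. The adjusted p was 1.49e-13, 6.25e-07, 0.000784, 7.79e-07, 4.72e-09, 0.00138 and 0.00128 in this order (limma). For Cdk1 the difference was 0.32 ± 0.23 (adjusted p = 0.299), with a 95% interval of -0.16 to 0.79. The sign and the call held for E2f1, CycE, stg, Cdk4, CycA and CycB in all 23 alternative analyses, and for CycD in 20. The knockdown, the plasmid and the experiment cannot be told apart in this difference.

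Within a gene, the groups were also ordered by level. The WT rescues of the Armi and Daed knockdowns differed at 3 drivers, all higher in the Armi knockdown. Of all tested genes 25.3% differed, 18.9% higher and 6.35% lower, and within the drivers' range 49% (39.2% and 9.77%). By limma on RPM 0 drivers were lower, also at an unadjusted p under 0.05, and 0 by edgeR or DESeq2. Limma scaled to gene reads called 2 higher and 3 lower. The higher share of all calls was 74.9%, and 35.6% scaled to gene reads. CycB was 2.32-fold higher in the Armi knockdown (log2 1.22 ± 0.10, adjusted p = 5.3e-11, limma), CycA 1.54-fold (0.63 ± 0.11, adjusted p = 2.56e-05) and Cdk4 1.39-fold (0.47 ± 0.12, adjusted p = 0.00366). The Cdk4 call was lost without Armi WT replicate 2 (0.36, adjusted p = 0.0508) and scaled to gene reads (0.14). The libraries did not overlap for these 3 drivers, beside 36.5% of all tested genes of any abundance, and overlapped for the other 5. In RPM the order of CycB ran from Daed WT over deltaSAM and KEE to Armi WT, with no overlap between any neighbours. Scaled to gene reads, the CycB values of deltaSAM overlapped those of Daed WT and those of KEE. For CycA deltaSAM and KEE were neighbours that overlapped in RPM, at 198 and 199.7. With gene reads in place of the library total these groups did not overlap. CycA was then at 342 ± 29.9 with deltaSAM, 264 ± 9.35 with Armi WT and 251 ± 8.32 with KEE. Levels are not compared between genes, since no transcript length was used here.

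Other regulators of the cycle were read in 4 lists of 68 genes, 67 of them in the table and 65 tested. Among G1 and S entry regulators 3 of 15 rose and 2 fell with deltaSAM, and 6 rose and 2 fell with KEE. These are 33.3% and 53.3% of the list, beside 36.2% and 44.7% of all tested genes. With KEE the balance was 4 up and 3 down scaled to gene reads, 4 and 5 with TMM, and 3 and 3 with DESeq2 or median centring. With deltaSAM it was 2 and 3 scaled to gene reads and 5 and 1 with median centring. With deltaSAM the F-box gene ago, which targets Cyclin E for destruction, rose from 854 ± 27.3 to 1444 ± 166 RPM (0.75 ± 0.08, limma, adjusted p = 1.45e-08). The kinase partner of Cyclin E, Cdk2, fell from 41.7 ± 3.12 to 22.9 ± 6.70 RPM (-0.87 ± 0.17). CycG, a cyclin gene, rose with both mutants. It went from 2573 ± 107 to 3358 ± 35.97 RPM in the Daed knockdown (0.38 ± 0.07) and from 3837 ± 117 to 7086 ± 95.3 RPM in the Armi knockdown (0.89 ± 0.07). With KEE the Cdk inhibitor gene dap rose from 121 ± 13.7 to 266 ± 10.2 RPM (1.14 ± 0.10), and Cks30A fell from 403 ± 49.7 to 214 ± 2.09 RPM (-0.90 ± 0.10). The list's median log2 fold change was -0.07 with deltaSAM and 0.55 with KEE, beside -0.10 and 0.30 over all tested genes.

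Among the genes of DNA replication 3 of 19 rose and 4 fell with deltaSAM, while 10 rose and 0 fell with KEE. These are 36.8% and 52.6% of the list, beside 36.2% (17.3% up, 18.9% down) and 44.7% (33% up, 11.7% down) of all tested genes. With deltaSAM the balance was 1 up and 4 down scaled to gene reads and 5 and 2 with median centring. With KEE 6 rose on either of these scales and 5 with TMM or DESeq2. The licensing factor Cdc6 rose with deltaSAM from 13.9 ± 2.21 to 27.5 ± 3.803 RPM (0.94 ± 0.18), and the helicase subunit dpa fell from 11.9 ± 2.57 to 4.91 ± 1.93 RPM (-1.16 ± 0.26). The replication kinase Cdc7 fell with deltaSAM from 36.03 ± 7.26 to 22.04 ± 1.04 RPM (-0.67 ± 0.16). With KEE its activator chif rose from 97.3 ± 10.5 to 315 ± 10.2 RPM (1.69 ± 0.11), the helicase subunit Mcm6 from 40.1 ± 1.46 to 95.2 ± 13.0 RPM (1.22 ± 0.12), and the ribonucleotide reductase subunit RnrS from 50.4 ± 4.54 to 105 ± 9.77 RPM (1.04 ± 0.12). The list's median was -0.16 with deltaSAM and 0.60 with KEE, against all-gene medians of -0.10 and 0.30. By limma 0 genes of the list fell with KEE at an unadjusted p under 0.05 too, and 0 by edgeR or DESeq2.

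Among regulators of G2 and mitosis 4 of 15 rose and 1 fell with deltaSAM, and 7 rose and 2 fell with KEE. The called shares of 33.3% and 60% stand beside 36.2% and 44.7% of all tested genes. With KEE the balance was 4 up and 4 down scaled to gene reads, with median centring, with TMM and with DESeq2. With deltaSAM it was 3 and 3 scaled to gene reads and 8 and 1 with median centring. Wee1, the kinase that restrains Cdk1, went from 97.2 ± 3.35 with WT to 230.1 ± 8.61 RPM with deltaSAM (1.24 ± 0.10, limma, adjusted p = 4.08e-11). The mitotic cyclin gene CycB3 fell with deltaSAM from 157 ± 7.83 to 106 ± 17.2 RPM (-0.57 ± 0.11). The checkpoint kinase lok moved in opposite directions. It rose with deltaSAM, 224 ± 16.6 against 382 ± 54.5 RPM (0.76 ± 0.11), and fell with KEE, 258 ± 31.8 against 92.5 ± 10.8 RPM (-1.47 ± 0.11). With KEE mts, the catalytic subunit of protein phosphatase 2A, rose from 45.6 ± 2.66 to 253 ± 12.4 RPM (2.45 ± 0.11), and its regulatory subunit tws from 310 ± 23.5 to 756 ± 14.5 RPM (1.29 ± 0.10). The list's median was 0.19 with deltaSAM and 0.41 with KEE.

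Among genes of mitotic exit and the spindle checkpoint 3 of 16 rose and 2 fell with deltaSAM, and 5 rose and 0 fell with KEE. This is 31.2% of the list in either comparison, below the 36.2% and 44.7% of all tested genes. With deltaSAM the balance was 1 up and 3 down scaled to gene reads, 1 and 2 with DESeq2, and 4 and 2 with median centring. The subunit of the anaphase-promoting complex shtd fell with deltaSAM from 24.96 ± 5.05 to 9.35 ± 3.66 RPM (-1.37 ± 0.22), and the checkpoint gene mad2 from 12.3 ± 0.591 to 4.68 ± 1.70 RPM (-1.27 ± 0.26). The activator fzy, the fly Cdc20, rose from 20.5 ± 2.24 to 32.5 ± 2.24 RPM (0.65 ± 0.16). With KEE the activator fzr, the fly Cdh1, rose from 11.1 ± 2.95 to 53.0 ± 4.00 RPM (2.18 ± 0.19), the subunit Cdc27 from 11.7 ± 1.78 to 41.1 ± 1.85 RPM (1.74 ± 0.20) and the checkpoint kinase Bub1 from 23.6 ± 0.765 to 45.9 ± 2.56 RPM (0.93 ± 0.18). The list's median was -0.03 with deltaSAM and 0.51 with KEE. By limma on RPM 0 genes of this list fell with KEE, also 0 at an unadjusted p under 0.05. Limma centred on the median gene, edgeR with TMM factors and DESeq2 each called 3 rises and 1 fall. Scaled to gene reads there were 3 rises and 0 falls, and 8 and 0 with edgeR at the library size.

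Over the 4 lists together, 13 genes rose and 9 fell with deltaSAM, and 28 rose and 4 fell with KEE. That is 33.8% and 49.2% of the 65 tested genes, near the 36.2% and 44.7% of all tested genes, and 73.8% of all calls with KEE were rises. Scaled to gene reads these counts were 7 and 13 with deltaSAM and 17 and 7 with KEE. Median centring gave 22 and 6 with deltaSAM and 16 and 8 with KEE.

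**Figure D4:**
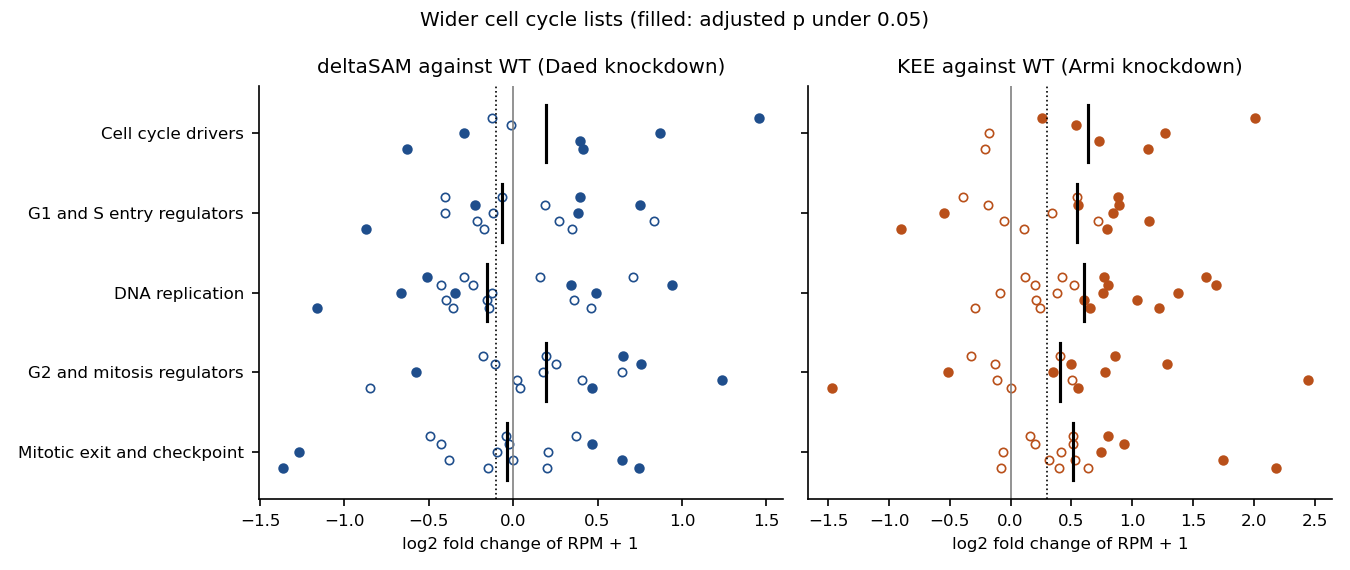
Log2 fold change of RPM + 1 for each tested gene of the drivers and of 4 wider cell cycle lists, deltaSAM against WT on the left and KEE against WT on the right. Filled points passed an adjusted p of 0.05, black bars are list medians and the dotted line is the median of all 8246 tested genes. With KEE the filled points lie mostly to the right, 28 against 4 in the wider lists, as do 73.8% of the calls over all genes, with lok (-1.47) furthest left and mts (2.45) furthest right.

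Further genes of the wider lists differed between the mutants. The difference in log2 fold change, KEE minus deltaSAM, was 2.63 ± 0.16 for mts, -2.23 ± 0.16 for lok and 2.21 ± 0.27 for fzr. It was 1.89 ± 0.28 for Cdc27, 1.88 ± 0.32 for shtd, 1.57 ± 0.17 for Mcm6, 1.43 ± 0.15 for CycB3, 1.42 ± 0.23 for Cdc7, 1.35 ± 0.16 for chif and 1.21 ± 0.14 for dap. It was -1.30 ± 0.14 for Cks30A and -0.80 ± 0.11 for ago. All 12 passed (limma, adjusted p under 0.05). Over the 4 lists 21 genes were higher and 8 lower by this difference, and 13 and 12 by median centring. These 44.6% stand near the 40.4% of all tested genes (29.4% higher, 11% lower).

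Across the 12 libraries E2f1, CycE and stg had Pearson correlations of log2(RPM + 1) of 0.97 with each other. Cdk1 had 0.81 with E2f1, 0.80 with CycE and 0.83 with stg, and CycD had 0.78 with E2f1, while Cdk4 had -0.40 with E2f1 and -0.68 with its partner CycD. CycA had 0.67 with Cdk1, 0.61 with Cdk4 and 0.60 with CycB. These values are over 12 libraries in 4 groups, share the library totals and rest largely on the group means. Among 2848 tested genes of at least 20 RPM on average, those most like E2f1 were coro, 14-3-3epsilon and mts, with r of 0.996 to 0.997. The gene coro went from 157 to 713 RPM and 14-3-3epsilon from 125 to 525 RPM between Armi WT and KEE. Most like Cdk4 were Past1, CG33116 and RhoGAP92B (0.98 to 0.99), of which RhoGAP92B went from 779 to 2274 RPM between Daed WT and deltaSAM. Most like CycE were Ptpmeg2, ena and twin (0.98 to 0.99), and most like stg were Pep, Stip1 and a gene with no symbol in the tables used, FBgn0267727 (0.98). Most like CycA were JhI-21, Cbl and Map205 (0.96 to 0.97), and most like CycB were Sema1a, parvin and Nhe3 (0.97 to 0.98). The low sources had looser matches, Vps26, RpS30 and DppIII for CycD (0.94 to 0.95) and CG2926, luna and CG9062 for Cdk1 (0.96).

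**Figure D5:**
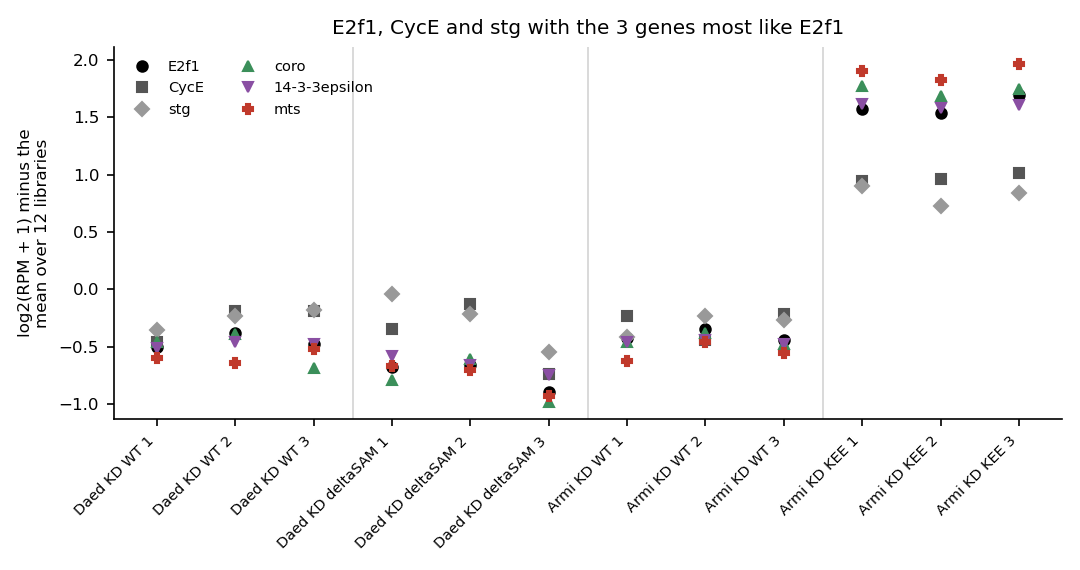
Log2(RPM + 1) minus the gene's mean over 12 libraries for E2f1, CycE, stg and the 3 genes most like E2f1, with 1 point per library and vertical lines between groups. All 6 genes stand highest in the 3 KEE libraries, which for the 3 genes picked by likeness to E2f1 follows from the choice. The gene mts, which rose by 2.45 on the log2 scale, stands above the others there.

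What genes that overlap the drivers in the annotation add to the driver values was not tested, as reads in a shared span cannot be assigned here. Antisense RNAs and other transcripts within the spans of E2f1, Cdk4, CycE and CycA that have a line in the table gave at most 1.02 RPM in any library. CycD, stg, Cdk1 and CycB overlapped no other annotated gene. Whether the counting used the strand is not given in the sources used here, so sense and antisense small RNAs of the drivers cannot be told apart.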

How the data were processed

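Small RNAs of 20 to 40 nucleotides were recovered from Piwi immunoprecipitates and depleted of rRNA, per the labels' protocols. The gene table deposited by the authors is in RPM, per the file headers. Per the submitters' processing notes the tools were STAR and HTSeq and the builds BDGP6 and dm6; their versions are not given in the sources used here. Whole reads were recovered from the RPM by the worth of 1 read in each library, and 100% of values came back within 0.01 of a read. Symbols were found for 17341 of 17469 identifiers (99.3%). Coordinates are from the RefSeq gene table of Release 6 (dm6).

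The main test was limma-trend on log2(RPM + 1), which understates changes of low genes, with all 12 libraries in 1 fit, genes of at least 1 RPM in at least 3 libraries, and Benjamini-Hochberg adjustment at 0.05. It was also run on simulated data with planted changes. The simulated libraries were not given the shift in the share of gene reads or the outlying replicates seen here. The members and lists were chosen with earlier results of these data known. All 8 drivers were named. From each wider list and comparison, up to 3 called genes were named by smallest p, provided the higher group reached 10 RPM, and for each driver the 3 genes of highest Pearson r. Alternatives were a pseudocount of 0.1 or 10 RPM, a filter of 10 RPM or none, a replicate block, gene reads as the total, median centring, 1 experiment alone, edgeR and DESeq2 on recovered reads, and each library left out. Leaving out replicate 3 of deltaSAM and of Armi WT together, and the share of the whole library, were added after seeing the data. The transposon table was not used here. Fits ran in limma 3.58.1, DESeq2 1.42.0 and edgeR 4.0.16 under R 4.3.3. Summaries and plots ran in pandas 2.3.3, scipy 1.17.1, numpy 2.4.6 and matplotlib 3.10.9 under Python 3.11.15. Orc1, a member of the DNA replication list, was not analysed here.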

Additional observations from a re-analysis of the deposited data

Results flagged for a closer look

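At 7 of the 8 drivers the effects of the mutants differed by a test of the difference itself (limma, adjusted p under 0.05). KEE exceeded deltaSAM at E2f1 by 2.30, CycE by 1.397, CycD by 1.17 and stg by 1.14 on the log2 scale. It lay below deltaSAM at Cdk4 (-1.67), CycA (-0.62) and CycB (-0.58). Cdk4 and its cyclin CycD had opposite signs with deltaSAM, all 3 deltaSAM libraries lying above WT for the kinase and below WT for the cyclin. The CycD fall rests on RPM and gene-read scaling and did not pass with median centring (adjusted p = 0.0960, limma), TMM (adjusted p = 0.0695, edgeR) or DESeq2 (adjusted p = 0.0982). Each knockdown has its own plasmid and its own libraries, so these causes cannot be told apart. Centred on the median gene, the CycD difference was 0.60 and did not pass (adjusted p = 0.0935, limma). It did not pass with TMM (0.67, adjusted p = 0.0652, edgeR) or DESeq2 (0.70, adjusted p = 0.107) either.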

How the results depend on the processing

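Counts of all changed genes stayed within 1.5 times in all alternatives run, as did those of the wider lists. Leaving out each library gave 2589 to 2970 genes with deltaSAM, 3199 to 3862 with KEE, 2951 to 3410 for their difference and 1752 to 2280 between WT rescues, and 4 to 6, 4 to 6, 7 and 2 to 3 drivers. It gave 18 to 23, 26 to 36 and 25 to 30 genes of the wider lists. DESeq2 called 3 drivers with deltaSAM in place of 6. Scaling to gene reads called 5 drivers between WT rescues, 2 up and 3 down, in place of 3 up. The difference in the drivers' share of gene reads, mutant minus WT, was 0.0162 to 0.0247 percentage points with deltaSAM and 0.0362 to 0.0391 with KEE when a library was left out. Signs turned only for values that did not pass or lay at the threshold. CycE with deltaSAM was 0.086 with median centring, 0.0063 with TMM, and 0.039 without replicate 3 of deltaSAM, alone or with replicate 3 of Armi WT. The value of stg with deltaSAM was 0.20 centred, 0.11 with TMM, 0.0029 with edgeR at the library size, 0.076 with DESeq2, 0.024 without Daed WT replicate 3, and 0.13 without replicate 3 of deltaSAM, alone or with that of Armi WT. CycA with KEE was -0.069 scaled to gene reads, -0.096 centred, -0.17 with TMM and -0.17 with DESeq2. The Cdk1 difference between mutants was -0.25 centred, -0.24 with TMM and -0.20 with DESeq2. Leaving out each library gave -0.27 to 0.039 for CycE and -0.13 to 0.13 for stg with deltaSAM. The cause was not tested. The 22 named genes of the wider lists kept their sign and call in 852 of 852 values. They were picked by smallest p in these same data, so this was largely set by the choice and does not describe the lists as a whole. Same-numbered libraries deviated together with correlations of -0.01 to 0.06. Daed WT replicate 3 and Armi WT replicates 1 and 2 matched the mutant library of their own number best, the other WT replicates did not. Counting noise in low genes lowers such correlations, so they cannot decide whether the replicates were paired. With the replicate block 5, 6 and 7 drivers and 3000, 3682 and 3319 genes passed with deltaSAM, with KEE and for their difference. Low sources limit what can be seen, with as few as 19 reads of CycD and 26 of Cdk1 in a library.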
